A study of Homo sapiens with 12 samples.

Results

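A set of 10 transporter genes was followed through SUM159 cells, a line established from a triple-negative breast cancer, that carried a hairpin against E4F1 or a control hairpin, with and without gemcitabine. The genes were chosen by symbol as carriers of amino acids across the plasma membrane, several of them known targets of the transcription factor ATF4. The choice was made with earlier results of these data known, so their counts beside those of all genes are descriptions only. All 10 were present in each of the 4 comparison tables the authors deposited, which together list 23375 genes. The 4 groups were shE4F1 with gemcitabine, shE4F1 untreated, shCTRL with gemcitabine and shCTRL untreated, with 3 libraries of polyadenylated RNA in each. Gemcitabine, a deoxycytidine analogue that stalls DNA synthesis, was given at 140 nM for 24 h. E4F1 is a zinc finger transcription factor that the labels give as down-regulated in shE4F1 cells. They do not say how many hairpin sequences were used, so effects of a hairpin sequence and of E4F1 loss cannot be told apart. The medium held serum, hydrocortisone and insulin in all groups. Whether the 3 libraries of a group stem from separate cultures is not stated, so the p-values describe the scatter of these libraries, which could be technical only.

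Cells take up amino acids through families of carriers that differ in substrate and in what drives them. LAT1, encoded by SLC7A5, exchanges intracellular glutamine for leucine and other large neutral amino acids, and xCT, encoded by SLC7A11, exchanges glutamate for cystine; both work as a light chain bound to the heavy chain 4F2hc, encoded by SLC3A2. When amino acids run short, the kinase GCN2 phosphorylates eIF2alpha, translation of ATF4 rises, and ATF4 induces carriers together with enzymes that make serine, glycine, asparagine and proline. Tumour cells, triple-negative breast cancers among them, often carry high levels of LAT1, xCT and the glutamine carrier ASCT2.

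The genes fall into 4 functional sets, placed here on GRCh38 with GENCODE 29. The exchangers of the heteromeric system are SLC7A5 (ENSG00000103257, chr16:87830023-87869488, minus strand), SLC7A11 (ENSG00000151012, chr4:138164097-138242349, minus strand) and their heavy chain SLC3A2 (ENSG00000168003, chr11:62856102-62888875, plus strand). The exchangers of small neutral amino acids are SLC1A5, or ASCT2 (ENSG00000105281, chr19:46774883-46788594, minus strand), and SLC1A4, or ASCT1 (ENSG00000115902, chr2:64988477-65023865, plus strand). Concentrating sodium-coupled carriers are SLC38A1 (ENSG00000111371, chr12:46183063-46270017, minus strand) and SLC38A2 (ENSG00000134294, chr12:46358189-46372867, minus strand), which import glutamine and alanine, and the glycine carrier SLC6A9 (ENSG00000196517, chr1:43991500-44031467, minus strand). The last set holds SLC7A1, the cationic amino acid carrier CAT1 for arginine and lysine (ENSG00000139514, chr13:29509410-29595688, minus strand), and SLC43A1, the facilitated carrier LAT3 for branched-chain amino acids and phenylalanine (ENSG00000149150, chr11:57484534-57515786, minus strand).

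Values are log2 fold changes ± standard error (SE) from the authors' DESeq2 tables, and "rose" and "fell" mean a Benjamini-Hochberg adjusted p under 0.05 over all genes of the comparison. The targeted gene was lower with its hairpin: the authors' deposited tables put E4F1 at -0.99 ± 0.26 in untreated cells (adjusted p = 0.000778) and at -0.91 ± 0.16 under gemcitabine (adjusted p = 1.47e-07). Values per library are not given, because the 12 columns of the count table match no label. Depth is unknown here, and the spread within groups enters only through the SEs. In place of values per library, a level for each group was derived from the mean normalised count and the fold change of a table. Treated and untreated groups then come from tables normalised separately, so such levels are compared only within a condition. Among markers of the line, VIM and CD44 had mean normalised counts of 66531 and 11116 over untreated libraries in the authors' deposited table, and FN1 had 175896. Of the luminal markers CDH1 had 5.34, ESR1 9.21 and KRT8 2674 in the authors' deposited table, and EPCAM was not listed. The blood marker PTPRC had 42.6 and the endothelial marker PECAM1 183 in the authors' deposited table.

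Knockdown of E4F1 without drug was accompanied by lower mRNA of all 10 transporters. All 10 fell and 0 rose, with a median of -1.34, while 19.3% of the 19472 genes tested fell, 17.5% rose and the median over all of them was -0.01. Among tested genes with a mean normalised count of 50 or more, 26.6% fell. By the authors' deposited table SLC1A4 and SLC7A5 were lowest, at 0.161 and 0.195 times their level in shCTRL cells, and SLC38A1 and SLC43A1 highest, at 0.684 and 0.634 times.

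All 3 genes of the heteromeric exchangers fell. SLC7A5 had a derived level of 4774 normalised counts in untreated shE4F1 cells, against 24528 in untreated shCTRL cells. Its log2 change in the authors' deposited table was -2.36 ± 0.20 (adjusted p = 7.86e-29). The heavy chain SLC3A2 stood at 4638 against 14833 derived normalised counts, and fell by 1.68 ± 0.20 in the authors' deposited table (adjusted p = 7.89e-15). SLC7A11, the cystine carrier, stood at 12327 in shE4F1 cells and 22099 in shCTRL cells, a fall of 0.84 ± 0.22 in the authors' deposited table (adjusted p = 0.000518).

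The small neutral exchangers also fell. SLC1A4, which carries serine, alanine and cysteine, had derived levels of 203 normalised counts in shE4F1 cells and 1265 in shCTRL cells, and its change of -2.64 ± 0.22 in the authors' deposited table was the largest of the 10 (adjusted p = 2.76e-30). Its relative SLC1A5, the main glutamine exchanger of many tumour cells, stood at 3268 in shE4F1 cells, against 9676 in shCTRL cells. It fell by 1.57 ± 0.17 in the authors' deposited table (adjusted p = 2.21e-19). Of the SLC38 family, both glutamine importers fell. In the authors' deposited table SLC38A1 fell by 0.55 ± 0.17 (adjusted p = 0.00458), and SLC38A2 fell by 0.68 ± 0.15 (adjusted p = 2.57e-05). Their derived levels were 21862 against 31958 and 36312 against 58145 normalised counts, shE4F1 cells first in each pair. The glycine carrier SLC6A9 had derived levels of 233 normalised counts in shE4F1 cells and 752 in shCTRL cells, and fell by 1.69 ± 0.24 in the authors' deposited table (adjusted p = 4.51e-11). For CAT1, SLC7A1 stood at 3537 derived normalised counts in shE4F1 cells and 7668 in shCTRL cells, and for LAT3, SLC43A1 stood at 323 and 509 in the same order. The authors' deposited table gives a fall of 1.12 ± 0.18 for SLC7A1 (adjusted p = 1.29e-08) and of 0.66 ± 0.17 for SLC43A1 (adjusted p = 0.000464).

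**Figure D1:**
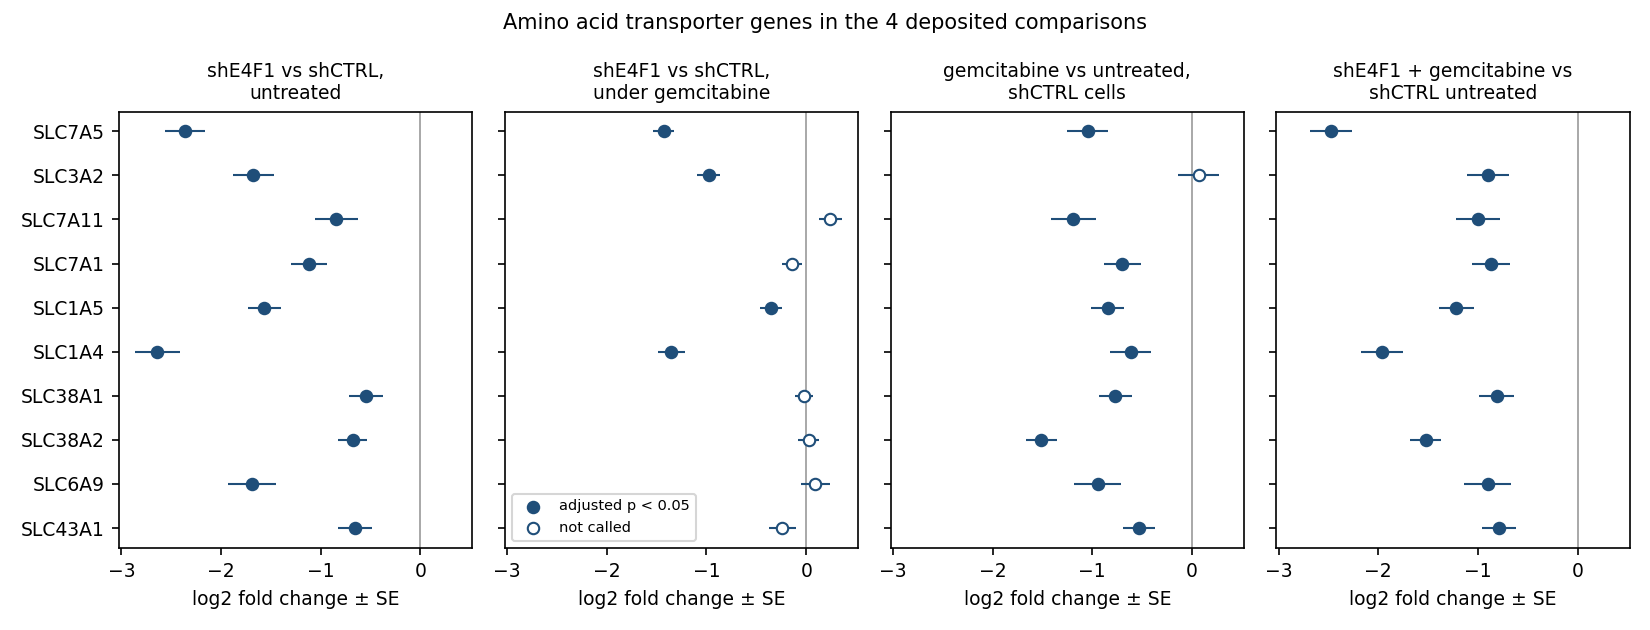
Log2 fold change (x axis, ± SE) of each transporter gene in the authors' deposited tables, 1 panel for each comparison; filled points have an adjusted p under 0.05 and open points do not. All 10 points are filled in the untreated knockdown panel and 4 are filled under gemcitabine, where the values of the other genes lie between -0.24 and 0.24.

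Since the genes moved together in untreated cells, their promoters were searched for the core letters of the element through which ATF4 acts with C/EBP partners, TGATGNAA, on both strands. Windows of 250 bases before to 50 after each start were taken from RefSeq (GRCh38.p14), where 9 of the 10 genes had 16 windows. The letters occurred in at least 1 window of 5 of the 9 genes, against 4.46% of all 27305 genes in that table. By window they occurred in 5 of 16, or 31.2%, against 3.62% of 35116. Several of the 10 genes were chosen as known ATF4 targets, so these shares are a description and no test. The matches are shown as stretches of at most 30 bases read along the gene's strand, with the motif or its reverse complement in capitals.
SLC1A5, chr19:46784893-46784922, minus strand: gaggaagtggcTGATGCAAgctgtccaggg
SLC1A4, chr2:64989381-64989410, plus strand: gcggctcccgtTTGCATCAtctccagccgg
SLC38A1, chr12:46266502-46266531, minus strand: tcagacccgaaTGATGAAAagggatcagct
SLC7A1, chr13:29595663-29595692, minus strand: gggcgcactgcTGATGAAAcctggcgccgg
SLC3A2, chr11:62881725-62881748, plus strand: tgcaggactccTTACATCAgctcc
In SLC1A5 the match began 97 bases before the start of its window, in SLC1A4 and SLC38A1 it began 7 and 4 bases before, and in SLC7A1 and SLC3A2 it began 7 and 37 bases after. Some of these starts lie inside the gene as placed above. The SLC3A2 stretch begins at 62881725 and the gene at 62856102. On the minus strand the SLC1A5 stretch begins at 46784922 and the gene at 46788594, while for SLC7A1 these are 29595692 and 29595688. Which starts these cells use was not measured. The 5 genes with a match spanned the range of the response, from SLC1A4 at -2.64 to SLC38A1 at -0.55 in the authors' deposited table. SLC7A5, SLC38A2, SLC6A9 and SLC43A1 had no match in these windows. For SLC38A2, the element known from earlier work lies in the first intron, outside the window. A second word, TGACGT, shared by E4F1 and ATF sites, occurred in 0 of the 16 windows and in 7.98% of all windows. These are matches of letters; binding was not measured.

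Under gemcitabine the knockdown was accompanied by falls of 4 of the 10 genes, and none rose. The median was -0.19, against 0.00 over the 22433 genes tested, of which 20.8% fell and 20.3% rose; with a mean of 50 or more, 29.8% fell. The 4 were SLC7A5, SLC3A2, SLC1A4 and SLC1A5. This comparison shares no library with the untreated one.

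SLC7A5 had the lowest value, with derived levels of 4836 normalised counts in shE4F1 cells and 13036 in shCTRL cells, both under gemcitabine. The authors' deposited table gives -1.43 ± 0.11 (adjusted p = 3.65e-40), or 0.371 times the shCTRL level. SLC1A4 fell by 1.35 ± 0.13 (adjusted p = 2.35e-22) and SLC3A2 by 0.98 ± 0.12 (adjusted p = 5.25e-16) in the authors' deposited table. SLC1A5 fell by 0.35 ± 0.11 in the authors' deposited table (adjusted p = 0.00503). Computed instead as both changes minus gemcitabine in shCTRL cells, it was -0.37 ± 0.24 and was not called (adjusted p = 0.332), with an SE that is too large because the untreated shCTRL libraries enter both of those tables.

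The other 6 genes did not pass the test under gemcitabine. In the authors' deposited table SLC38A2 was at 0.02 ± 0.11, with a 95% interval of -0.19 to 0.23. SLC38A1 was at -0.02 ± 0.09 in the authors' deposited table, with an interval of -0.20 to 0.16. SLC6A9, which had fallen to 0.310 times the shCTRL level without drug, was at 0.09 ± 0.15 in the authors' deposited table (interval -0.20 to 0.38). The authors' deposited table gives 0.24 ± 0.12 for SLC7A11 (adjusted p = 0.0866), with an interval before adjustment of 0.01 to 0.47. SLC7A1 and SLC43A1 are listed in the authors' deposited table with -0.14 ± 0.10 (adjusted p = 0.274) and -0.24 ± 0.14 (adjusted p = 0.161).

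The difference between the knockdown effects was tested gene by gene as the effect under gemcitabine minus the effect in untreated cells, with a two-sided normal test adjusted over 20923 genes. It was above 0 for all 10 genes and called for 7, while 2.81% of all genes were called in that direction and 2.63% in the other. SLC6A9 had the largest difference, 1.78 ± 0.28 (adjusted p = 1.26e-07). SLC1A4 differed by 1.29 ± 0.26 (adjusted p = 9.85e-05), SLC1A5 by 1.21 ± 0.20 (adjusted p = 4.1e-07), SLC7A11 by 1.09 ± 0.25 (adjusted p = 0.000811) and SLC7A1 by 0.97 ± 0.21 (adjusted p = 0.000311). SLC7A5 differed by 0.93 ± 0.23 (adjusted p = 0.00263) and SLC38A2 by 0.70 ± 0.18 (adjusted p = 0.00473). The 3 not called were SLC3A2 at 0.70 ± 0.23 (adjusted p = 0.0525), SLC38A1 at 0.53 ± 0.19 (adjusted p = 0.0806) and SLC43A1 at 0.42 ± 0.22 (adjusted p = 0.309). SLC3A2 was called when p-values were adjusted only over genes whose mean normalised counts reached 50 (adjusted p = 0.0373).

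**Figure D2:**
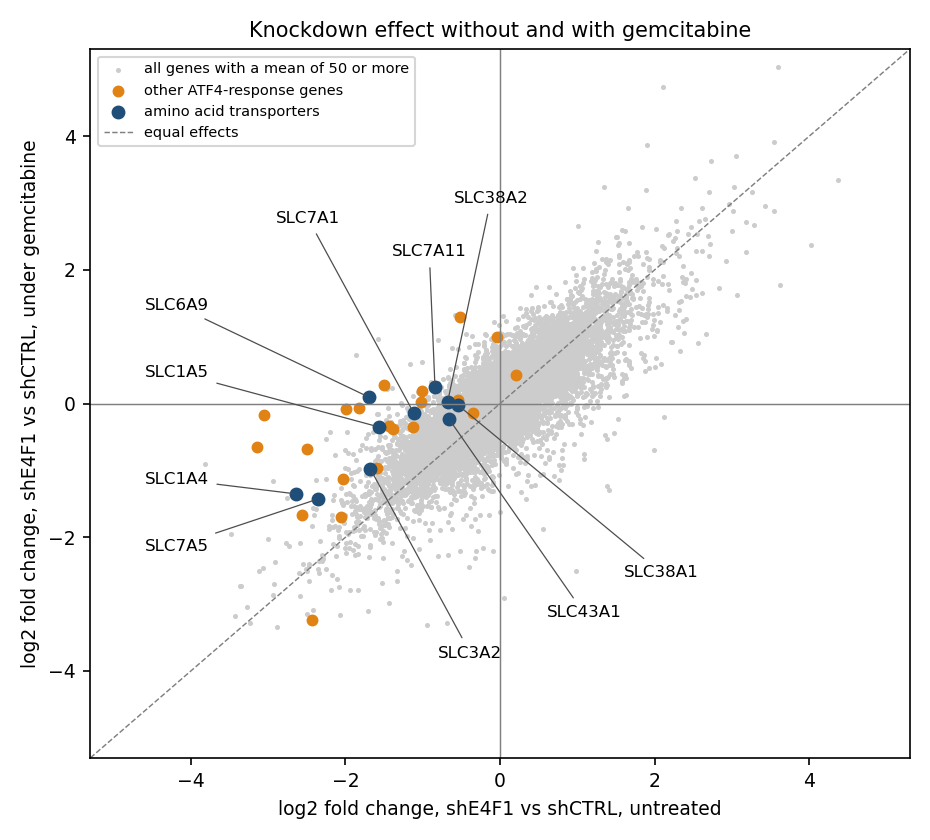
Log2 fold change of shE4F1 against shCTRL in untreated cells (x axis) and under gemcitabine (y axis), both from the authors' deposited tables, for all 12579 genes with a mean of 50 or more in both (grey), for other genes of the ATF4 response (orange) and for the transporters (blue). The dashed line marks equal effects; all 10 transporters lie above it, and SLC7A5, SLC1A4 and SLC3A2 lie lowest.

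Gemcitabine in shCTRL cells was accompanied by falls of 9 of the 10 genes, and none rose. The median was -0.80, against -0.02 over the 20002 genes tested, of which 13.5% fell and 14.5% rose; with a mean of 50 or more, 19.3% fell. The order differed from that of the knockdown. SLC38A2 came first, at -1.51 ± 0.16 in the authors' deposited table (adjusted p = 1.13e-19), which is 0.351 times the untreated level. SLC7A11 fell by 1.19 ± 0.22 (adjusted p = 1.93e-06), SLC7A5 by 1.05 ± 0.21 (adjusted p = 7.59e-06) and SLC6A9 by 0.95 ± 0.24 (adjusted p = 0.000597) in the authors' deposited table. Falls of 0.53 to 0.84 were recorded for SLC1A5, SLC38A1, SLC7A1, SLC1A4 and SLC43A1 in the authors' deposited table, with adjusted p from 5.65e-06 to 0.0145. The exception was the heavy chain SLC3A2, at 0.07 ± 0.20 in the authors' deposited table (adjusted p = 0.85, 95% interval -0.33 to 0.46).

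With both changes together, shE4F1 cells under gemcitabine against untreated shCTRL cells, 10 of 10 genes fell, against 16.3% of the 19724 genes tested (23.1% of those with a mean of 50 or more), while 15.8% rose. The median was -0.95, against -0.01 over all genes tested. In the authors' deposited table SLC7A5 fell by 2.47 ± 0.21 (adjusted p = 5.66e-30), SLC1A4 by 1.96 ± 0.21 (adjusted p = 8.45e-19) and SLC38A2 by 1.52 ± 0.16 (adjusted p = 1.21e-20). The other 7 fell by 0.79 to 1.22 in the authors' deposited table.

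For all 10 genes the value with both changes lay above the sum of each change alone; as tested above, the difference was called for 7 of them. For SLC7A5 the single effects sum to -3.41, against -2.47 measured with both in the authors' deposited table. For SLC6A9 the sum is -2.63 and the measured value in the authors' deposited table -0.90. SLC38A2 stood at -1.52 with both changes and at -1.51 with gemcitabine alone in the authors' deposited tables, values that differ by less than their SE. SLC3A2 was lower with the hairpin alone, at -1.68 in the authors' deposited table, than with both, at -0.90. The gap between sum and measured value restates the difference between the knockdown effects from the same libraries, so it adds no independent evidence. In it, both comparisons of a treated group with untreated shCTRL cells replace the knockdown comparison under gemcitabine. The gap ranged from 0.40 for SLC43A1 to 1.73 for SLC6A9.

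**Figure D3:**
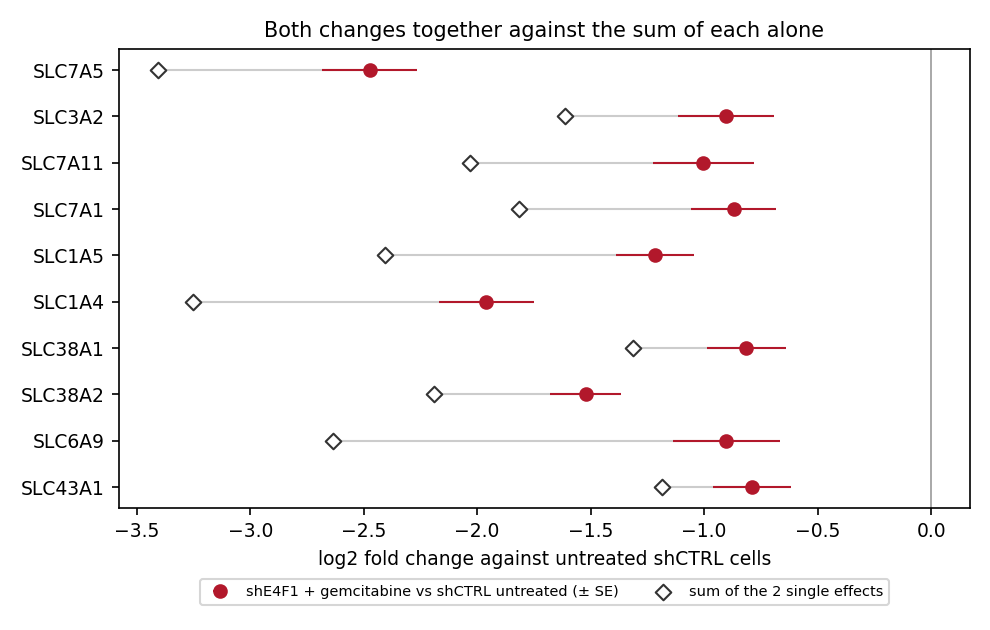
Log2 fold change against untreated shCTRL cells (x axis) for each transporter gene: filled points show shE4F1 cells under gemcitabine (± SE, authors' deposited table), open diamonds the sum of the knockdown effect in untreated cells and the drug effect in shCTRL cells. Every filled point lies to the right of its diamond, by 0.40 to 1.73.

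Within shE4F1 cells the drug effect was derived as the table of both changes minus the untreated knockdown table. Of the 10 genes 5 were above 0 and 5 below, with a median of 0.07. Only SLC38A2 was called, at -0.84 ± 0.21 (adjusted p = 0.0107), while 0.185% of 21080 genes were called lower and 0.925% higher. SLC6A9 was at 0.79 ± 0.34 (adjusted p = 0.5), SLC3A2 at 0.77 ± 0.29 (adjusted p = 0.321), SLC1A4 at 0.68 ± 0.31 (adjusted p = 0.58) and SLC7A5 at -0.11 ± 0.29 (adjusted p = 1). These SEs are too large, because the untreated shCTRL libraries enter both tables. With the variance solved from the SEs of the other tables, SLC38A1, at -0.27 ± 0.09 (adjusted p = 0.0294), was called lower beside SLC38A2. Then 4 genes were called higher, namely SLC3A2 (adjusted p = 8.39e-09), SLC6A9 (adjusted p = 6.95e-06), SLC1A4 (adjusted p = 0.00031) and SLC1A5 (adjusted p = 0.0154). The smaller SE raised calls over the whole table as well: of 20465 genes 7.15% were then called higher and 7.17% lower. The solved variance combines SEs of separate comparisons, and genes for which it was not above 0 were left out. How precise it is was not tested.

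Read across the groups, untreated shCTRL cells had the highest level of 9 of the 10 genes, and the folds of the other 3 groups against them were below 1. SLC3A2 was the exception, at 1.05 times that level in shCTRL cells under gemcitabine in the authors' deposited table. The 3 tables in which 9 or 10 genes fell all hold the untreated shCTRL libraries, so they are not independent of each other. Only the knockdown table under gemcitabine is free of them. The SEs of the 10 genes in that table were 0.516 to 0.817 times those in the untreated knockdown table, with a median of 0.746 over 12579 genes. They ran from 0.090 to 0.148 with knockdown under gemcitabine and from 0.146 to 0.240 with knockdown in untreated cells. For gemcitabine in shCTRL cells they ran from 0.157 to 0.238, and for both changes from 0.155 to 0.235. The part of the untreated shCTRL libraries in the shared falls was not tested.

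Per kb of annotated exon, 7 of the 10 genes lay above the 90th percentile of all genes in untreated shCTRL cells. In derived normalised counts per kb the order there was SLC38A2 at 8807, SLC7A5 at 5169, SLC38A1 at 3191, SLC1A5 at 2904, SLC3A2 at 2865, SLC7A11 at 2291 and SLC7A1 at 997. SLC1A4 at 182, SLC6A9 at 146 and SLC43A1 at 144 lay below the 70th percentile. Whether neighbours in this order differ beyond the spread between libraries is unknown here, and all exons of a gene enter its length, also those these cells may not use. In untreated shE4F1 cells the derived level of SLC7A5 was 1006 per kb, next to SLC1A5 at 981 and SLC3A2 at 896. The ratio of SLC7A5 to SLC3A2 in derived counts per kb was 0.582 in shE4F1 and 0.795 in shCTRL cells under gemcitabine, and 1.12 in shE4F1 and 1.80 in shCTRL cells without it.

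**Figure D4:**
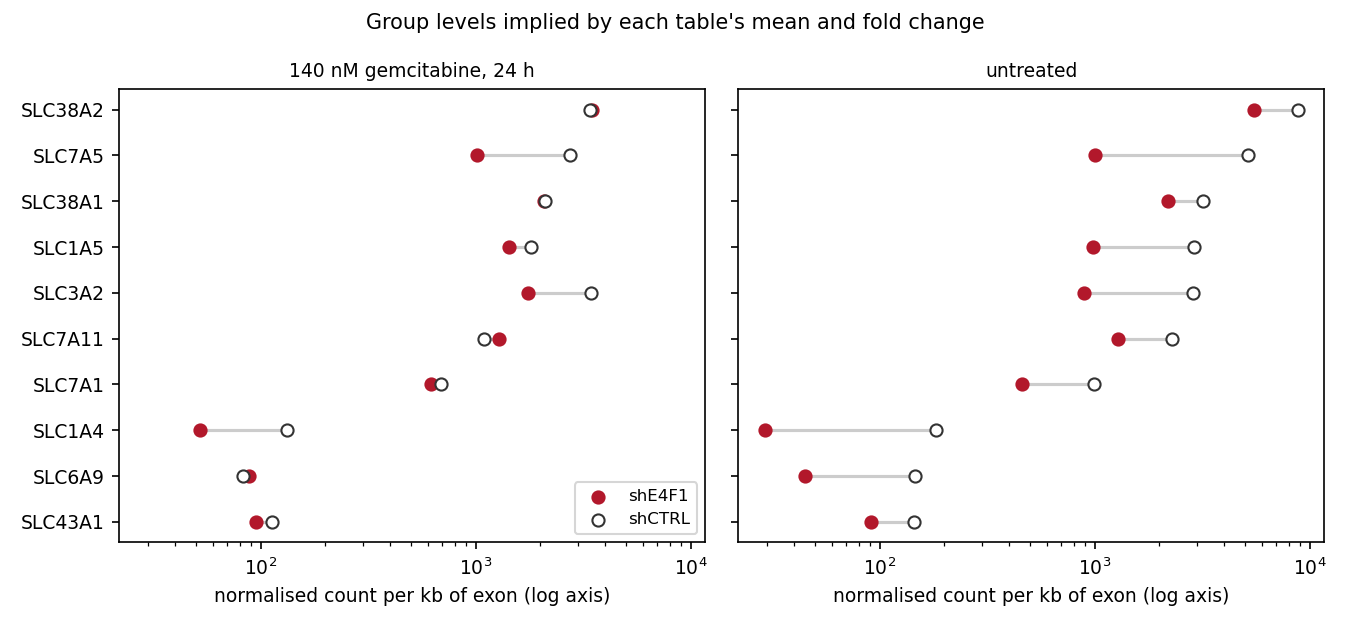
Derived normalised count per kb of exon (x axis, log scale) of each transporter gene in shE4F1 (filled) and shCTRL cells (open), under gemcitabine (left) and untreated (right); levels come from the mean and fold change of each deposited table and carry no error bars. Untreated, every filled point lies left of its open partner; under gemcitabine the points of SLC38A1 and SLC38A2 nearly coincide.

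Other genes of the amino acid response, from a list of 21 without transporters, moved in the same tables. Of these 21, 18 fell and 0 rose in untreated shE4F1 cells (median -1.50), and 10 fell and 3 rose in shE4F1 cells under gemcitabine (median -0.17). In shCTRL cells under gemcitabine 14 fell and 2 rose (median -0.79). The difference between knockdown effects was called above 0 for 16 and below 0 for none. Over all genes 19.3% fell and 17.5% rose in the first of these comparisons, 20.8% and 20.3% in the second, and 13.5% and 14.5% in the third. The difference was called above 0 for 2.81% of all genes and below 0 for 2.63%. This list was chosen with earlier results of these data known, so its counts are a description only. The mRNA of ATF4 itself was at -1.02 ± 0.14 (adjusted p = 1.12e-11) with knockdown in untreated cells, at 0.03 ± 0.12 (adjusted p = 0.887) with knockdown under gemcitabine and at -1.28 ± 0.15 (adjusted p = 1.27e-15) with gemcitabine alone in the authors' deposited tables. ATF4 is controlled mainly at translation, and protein was not measured. DDIT3, encoding its partner CHOP, fell by 1.59 ± 0.23 with knockdown in untreated cells and rose by 0.78 ± 0.21 with gemcitabine alone in the authors' deposited tables. With knockdown under gemcitabine DDIT3 fell by 0.96 ± 0.10 in the authors' deposited table (adjusted p = 8.33e-20). The largest falls of the list with knockdown in untreated cells were those of the pseudokinase gene TRIB3, at -3.14 ± 0.25, and the glutathione-degrading enzyme gene CHAC1, at -3.05 ± 0.42, in the authors' deposited table. MYC, which also induces several amino acid carriers, was at -0.19 ± 0.14 (adjusted p = 0.322) with knockdown in untreated cells and fell by 0.74 ± 0.13 with gemcitabine alone in the authors' deposited tables. With knockdown under gemcitabine MYC rose by 0.34 ± 0.12 in the authors' deposited table.

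Other plasma membrane amino acid carriers, a list of 25, held genes called in either direction. Of 16 tested in untreated cells 3 fell and 4 rose with the knockdown, with a median of 0.19, and 2 of 17 fell and 5 rose under gemcitabine. Over all genes 19.3% fell and 17.5% rose in untreated cells, and 20.8% fell and 20.3% rose under gemcitabine, so the list's counts are read as a description only. The glutamate carriers SLC1A1 and SLC1A3, of the same family as SLC1A4 and SLC1A5, rose by 1.51 ± 0.25 and 1.30 ± 0.15 in untreated shE4F1 cells in the authors' deposited table. SLC7A2, the cationic carrier CAT2 next to SLC7A1 in function, fell by 1.00 ± 0.20 in the authors' deposited table. SLC38A5 fell by 1.94 ± 0.50 in the authors' deposited table, on a mean of 12.2 normalised counts. SLC7A6 and SLC7A7, light chains that also bind SLC3A2 and were picked for that with their values known, stood at 0.50 ± 0.15 (adjusted p = 0.00361) and -0.32 ± 0.26 (adjusted p = 0.371) in untreated cells, per the authors' deposited table.

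Cystine taken up by SLC7A11 feeds glutathione synthesis. Genes of cysteine and glutathione metabolism and NRF2 targets were called in both directions only with knockdown under gemcitabine. Of 13, 4 fell and 0 rose with knockdown in untreated cells, and 3 fell and 4 rose with knockdown under gemcitabine. With gemcitabine in shCTRL cells 6 of 12 fell and 0 rose. Over all genes 19.3% fell and 17.5% rose in the first of these comparisons. In the second 20.8% fell and 20.3% rose, and in the third 13.5% fell and 14.5% rose. The list's counts are therefore read as a description only. The transsulfuration genes CTH and CBS, which make cysteine inside the cell, were at -2.94 ± 0.24 and -1.33 ± 0.31 in untreated shE4F1 cells in the authors' deposited table, and both fell.

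The genes outside the 10 whose fold changes lay nearest to those of SLC7A5, by Euclidean distance over the knockdown in each condition and gemcitabine in shCTRL cells, were MTHFD2, at a distance of 0.335 (log2), GPT2 at 0.382 and CTB-193M12.5 at 0.389. MTHFD2 encodes a mitochondrial folate enzyme, and GPT2 the mitochondrial alanine transaminase. Nearest to the median of the 10 genes were GARS, the glycyl-tRNA synthetase gene, at 0.108, METTL12 at 0.154 and RP11-498C9.15 at 0.165. The search covered 12453 genes with a mean of 50 or more in all 3 tables; these comparisons share control libraries, so the distances describe these tables only.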

How the data were processed

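Reads of 50 bases from stranded mRNA libraries were processed by the authors on GRCh38.p7. Per the submitters' processing notes their tools were TopHat2 2.1.1 and Bowtie2 2.2.9, HTSeq 0.9.0 for counting, and for testing DESeq2 1.14.1 in R 3.4.0. How strand was counted, which annotation and which model were used is not given in the sources used here. Each of the 4 deposited tables holds, per the file headers, a mean of normalised counts, a log2 fold change with its SE, the Wald score (log2 fold change over SE), and p-values with their Benjamini-Hochberg adjustment; missing adjusted p-values stayed missing. The count table's 12 columns match no label and were not used, so precision rests on the SE.

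Derived here, in Python 3.11.15 (scipy 1.17.1, numpy 2.4.6), were the difference of the knockdown effects and the drug effect in shE4F1 cells (differences of log2 fold changes, SEs from summed variances, two-sided normal test, Benjamini-Hochberg over all genes). Group levels solve a table's mean and fold change for its 2 groups of 3. A second estimate of the untreated shCTRL level, from the means of 3 tables, was set against that from the table of gemcitabine in shCTRL cells. The 2 lay within a factor of 1.25 for 99% of 12615 genes, with a median log2 ratio of -0.0987, the second estimate being the lower. The fold changes, above all those of low genes, may be moderated, and to a degree that may differ between the comparisons. What this does to derived levels, sums and differences was not tested.

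The 10 genes and the 7 lists beside them were chosen with earlier results of these data known. Named were all 10 genes, the 2 largest called falls and rises of a list in the untreated knockdown, ATF4, DDIT3, MYC and E4F1, and the 3 nearest genes by fold change. Outside this rule, SLC7A6 and SLC7A7 were named after their values were seen. Alternatives changed the genes adjusted over, the adjustment, the centring, and the source of derived values and SEs.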

Additional observations from a re-analysis of the deposited data

Results flagged for a closer look

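For 7 of the 10 transporter genes the knockdown effect differed between gemcitabine-treated and untreated cells, each time with a difference above 0. This was called by the test of the difference itself (two-sided normal test, Benjamini-Hochberg over 20923 genes). Of all genes 2.81% were called in that direction and 2.63% in the other. The 10 genes were chosen with earlier results of these data known, so the count is a description only. On the log2 scale, treated minus untreated, the difference was 1.78 for SLC6A9, 1.29 for SLC1A4 and 1.21 for SLC1A5. It was 1.09 for SLC7A11, 0.97 for SLC7A1, 0.93 for SLC7A5 and 0.70 for SLC38A2. The untreated shCTRL libraries enter each of these differences, and their part was not tested.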

How the results depend on the processing

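Of 220 values of single transporter genes under the alternatives, 191 kept their direction and their side of the threshold, 22 lost a call, 6 gained one and 1 changed sign. With Holm in place of Benjamini-Hochberg adjustment, which is stricter by construction, the number of transporter genes that fell was 6 in place of 10 for the untreated knockdown, 3 in place of 4 for the knockdown under gemcitabine, where SLC1A5 was lost, 4 in place of 9 for gemcitabine in shCTRL cells, 4 in place of 10 for both changes and 0 in place of 1 for gemcitabine in shE4F1 cells. The differences between knockdown effects called above 0 were then 3 in place of 7. Of all genes, Holm called lower 7.18%, 9.56%, 3.08%, 5.37% and 0.0285% in these 5 comparisons, in the same order, and 0.368% above 0 for the difference. With the SE solved from the other tables, the drug effect in shE4F1 cells was called lower for 2 in place of 1 and higher for 4 in place of 0. That SE is smaller by construction, and of all genes for which it could be solved 7.17% were called lower and 7.15% higher. Taken from the other 2 tables of the triangle, SLC38A2 was at -0.013 in place of 0.02 with knockdown under gemcitabine, neither called. Centring on the median of all genes changed no call of the 10 genes. No paired analysis was possible because the columns of the count table match no label, so no replicate block was fitted and no replicate was left out. Depth per library is unknown here.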

Other observations

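The lists here are descriptions, to be read against all genes, of which 19.3% fell and 17.5% rose with knockdown in untreated cells and 20.8% fell and 20.3% rose with knockdown under gemcitabine. Lysosomal carriers, which release amino acids inside the cell, held genes called in either direction. Of 9 tested, 1 fell and 3 rose with knockdown in untreated cells and 2 fell and 3 rose with knockdown under gemcitabine. SLC38A9, the arginine-sensing carrier upstream of mTORC1, rose by 0.49 ± 0.14 and 0.92 ± 0.11, and SLC38A7, which exports glutamine from the lysosome, rose by 0.75 ± 0.15 and 0.90 ± 0.11, untreated and under gemcitabine in the authors' deposited tables. SLC15A4, a carrier of peptides and histidine, fell by 0.62 ± 0.16 in untreated shE4F1 cells in the authors' deposited table.

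Of 19 genes of amino acid sensing at mTORC1, 5 fell and 3 rose with knockdown in untreated cells, and 4 fell and 8 rose with knockdown under gemcitabine. In the authors' deposited table of untreated cells DDIT4, an mTORC1 inhibitor, fell by 1.58 ± 0.13, and the Ragulator subunit gene LAMTOR3 fell by 1.55 ± 0.15. SESN3 rose by 1.91 ± 0.24 and RRAGD by 1.02 ± 0.34 in the authors' deposited table of untreated cells. With knockdown under gemcitabine DDIT4 rose by 0.96 ± 0.13 in the authors' deposited table. Among the genes of eIF2alpha itself, its kinases and its phosphatase subunits 1 of 7 fell and 2 rose in untreated cells. With knockdown under gemcitabine 4 fell and 3 rose. In untreated cells PPP1R15A, a phosphatase subunit gene, was at -1.60 ± 0.41, EIF2AK4, encoding GCN2, at 0.59 ± 0.14 and EIF2AK2 at 0.55 ± 0.13 in the authors' deposited table. Of 7 tested genes of glutamine and glutamate metabolism 2 fell and 1 rose in untreated cells, and of 8 tested 3 fell and 2 rose with knockdown under gemcitabine. In the authors' deposited table of untreated cells GPT2 fell by 2.38 ± 0.18, the glutamate dehydrogenase gene GLUD1 fell by 1.17 ± 0.13, and the glutamine synthetase gene GLUL rose by 1.20 ± 0.17.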
